A study of Mus musculus with 60 samples.

Results

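The members are 10 genes of glycolysis in mouse embryo explants: the glucose transporter Slc2a1, the hexokinases Hk1, Hk2 and Hkdc1, and the enzymes Aldoa, Gapdh, Pgk1, Eno1, Pkm and Ldha. They are the entries of the RNA count table that carry these symbols, 10 of 23127 genes, and 9 of the 10 had a count in at least 1 library. The series holds 60 samples of the ICR strain, of which 6 are RNA libraries, while the other 54 samples were not analysed here. Explants were cultured in N2B27 medium for 48 h, either with EPZ005687, which inhibits the histone methyltransferase EZH2, or with an equal volume of the solvent DMSO. Each arm gave 1 polyA RNA library from anterior embryonic (A), 1 from posterior embryonic (P) and 1 from extraembryonic (ExE) tissue. All groups are thus cultured tissue and none is a freshly taken embryo. The labels state neither the stage of the embryos used for RNA nor how many went into a library.

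Glycolysis splits glucose into pyruvate and yields ATP without oxygen. Glucose enters through a transporter and is trapped by a hexokinase, then aldolase cuts the sugar, Gapdh and Pgk1 run the first oxidation and ATP-forming steps, enolase and pyruvate kinase make pyruvate, and lactate dehydrogenase turns pyruvate into lactate. Early postimplantation embryos are known for high glucose uptake and lactate output, and many genes of the pathway are textbook targets of the hypoxia-inducible factor HIF1. EZH2 is the catalytic subunit of the complex that places the repressive mark H3K27me3.

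The promoters of 4 members are shown because Hk2 and Hkdc1 carry the main contrast of the results, while Pgk1 and Ldha represent the enzymes that did not separate the arms. Each window is RefSeq sequence of GRCm38.p6, read 5′ to 3′ on the strand of the gene, 250 bases before to 50 after an annotated start. Capitals mark each match, on either strand, to the core of the HIF response element, searched as ACGTG or GCGTG. The windows lie at chr6:82774405-82774704 (minus strand) for Hk2, chr10:62422408-62422707 (minus strand) for Hkdc1, chrX:106186850-106187149 (plus strand) for Pgk1 and chr7:46845554-46845853 (plus strand) for the first of 2 Ldha windows.
Hk2: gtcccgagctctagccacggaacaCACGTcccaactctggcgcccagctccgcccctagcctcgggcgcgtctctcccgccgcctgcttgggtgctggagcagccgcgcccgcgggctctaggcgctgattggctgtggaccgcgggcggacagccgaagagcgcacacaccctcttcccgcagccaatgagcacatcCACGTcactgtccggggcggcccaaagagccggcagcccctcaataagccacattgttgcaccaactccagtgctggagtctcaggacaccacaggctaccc
Hkdc1: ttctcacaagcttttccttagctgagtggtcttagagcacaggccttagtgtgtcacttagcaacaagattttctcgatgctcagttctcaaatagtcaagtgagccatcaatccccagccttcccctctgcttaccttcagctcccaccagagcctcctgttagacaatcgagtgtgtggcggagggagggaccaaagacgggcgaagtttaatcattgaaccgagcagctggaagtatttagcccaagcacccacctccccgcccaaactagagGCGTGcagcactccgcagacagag
Pgk1: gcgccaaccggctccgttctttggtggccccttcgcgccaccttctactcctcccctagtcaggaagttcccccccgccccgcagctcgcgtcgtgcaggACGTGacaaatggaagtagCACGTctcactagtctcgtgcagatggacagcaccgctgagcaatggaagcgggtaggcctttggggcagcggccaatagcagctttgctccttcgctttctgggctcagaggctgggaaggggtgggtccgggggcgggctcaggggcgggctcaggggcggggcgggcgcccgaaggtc
Ldha: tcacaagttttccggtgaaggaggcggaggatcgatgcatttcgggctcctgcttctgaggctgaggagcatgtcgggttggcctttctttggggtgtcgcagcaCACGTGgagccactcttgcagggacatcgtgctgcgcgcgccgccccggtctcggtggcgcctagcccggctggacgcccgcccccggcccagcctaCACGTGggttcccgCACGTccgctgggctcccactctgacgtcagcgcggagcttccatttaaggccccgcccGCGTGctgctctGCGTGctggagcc

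The Hk2 window held 2 matches, the Hkdc1 window 1, the Pgk1 window 2 and this Ldha window 7. In the Ldha window 2 pairs of matches overlap on opposite strands and spell CACGTG, the E-box, which also occurs in 7.15% of all promoter windows. All 10 members had at least 1 window with a HIF core match, in 14 of their 17 windows (82.4%), against 43.8% of 32851 RefSeq windows of 300 bases. Windows of a gene can overlap, and overlapping windows of Aldoa and of Eno1 share the same matches, which are thus counted more than once. The members' windows had a GC content between 51.3% and 69.0%, and no comparison with windows of like GC content was made. A match is not a site, and binding was not measured in the RNA libraries.

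Totals ran from 1000342 to 2173284 counts in the EPZ005687 libraries and from 1780304 to 5812535 counts in the DMSO libraries. Levels are given as CPM, counts per 1000000 after TMM scaling, which sets libraries against each other by the bulk of their genes. CPM is not divided by transcript length, so levels are compared between libraries and not between genes. Where a gene has 0 counts, the limit taken is 3 counts, worth 2.38 CPM in the shallowest library and 0.674 CPM in the deepest. PCR reads are not independent molecules, so these limits and all intervals below cover counting error only. A code in the column names is the same within an arm and not the same in the other arm, and handling that goes with it cannot be told apart from treatment. The 2 arms also differed in sex-linked RNA: the Y-linked gene Eif2s3y had 57, 488 and 131 counts in the EPZ005687 libraries of A, P and ExE, against 0, 0 and 1 with DMSO, and the part of embryo sex in any result was not tested. The ExE libraries held little RNA of trophoblast markers. Trophoblast markers summed to 31.0 CPM in ExE with EPZ005687 and 7.64 CPM in ExE with DMSO, with Cdx2 at 0 in both, while 15 visceral endoderm markers summed to 23636 CPM and 42253 CPM there. Primitive blood markers summed to 28462 CPM in ExE with EPZ005687 and 551 CPM in ExE with DMSO. ExE is therefore used below as the name on the label, for RNA rich in endoderm markers and, with EPZ005687, in blood markers. Visceral endoderm markers were not confined to ExE, and summed to 9726 CPM in P with EPZ005687 and 17359 CPM in P with DMSO.

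Hk2 was the 1 member that fell with EPZ005687, and no member rose. Hkdc1, a related hexokinase, was highest in ExE of both arms and did not pass for treatment, and its share of the joint Hkdc1 and Hk2 counts was larger with EPZ005687 in each region. Gapdh was higher with EPZ005687 in all 3 regions without passing the test. Slc2a1, Aldoa, Pgk1, Pkm and Ldha were above DMSO in A and below DMSO in P and ExE, where the ExE ratios of the last 4 turned above 1 with library totals as the scaling.

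**Figure D1:**
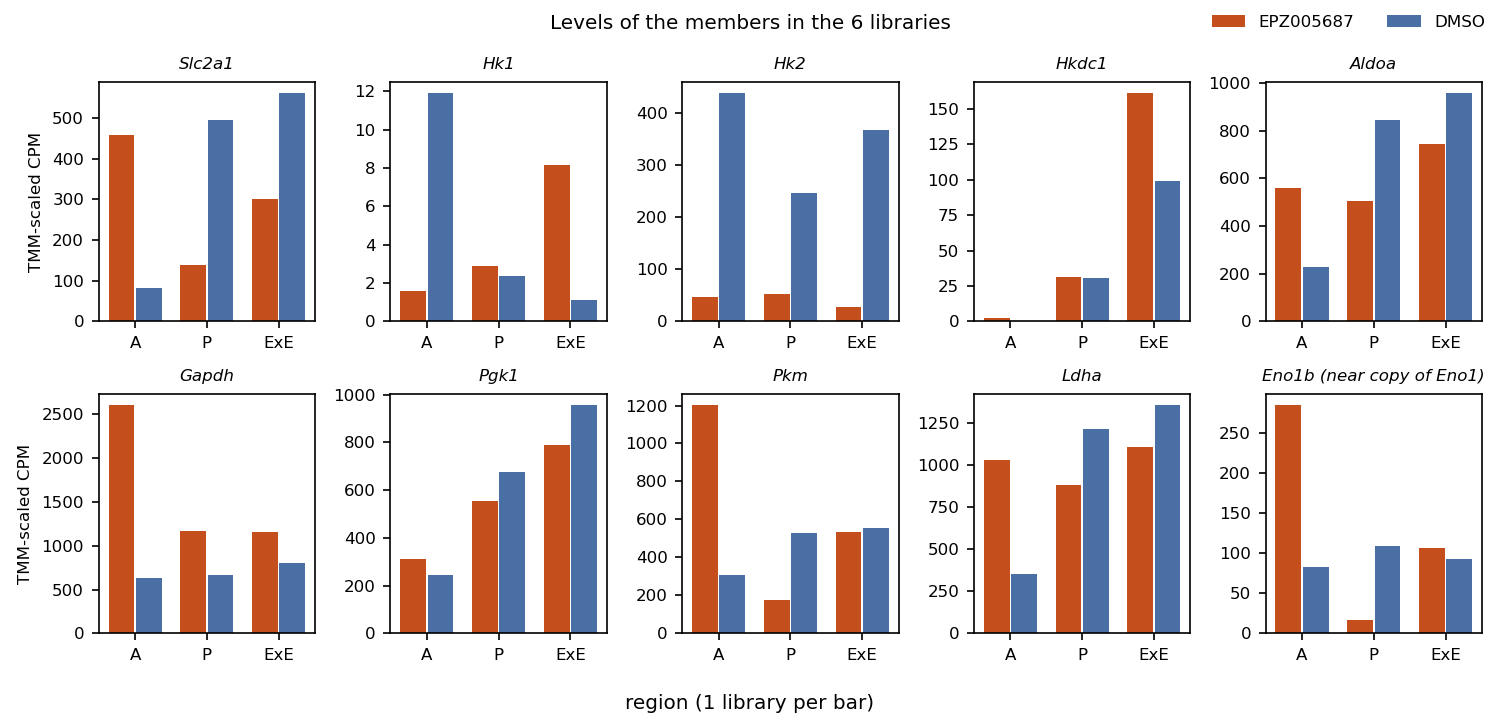
TMM-scaled CPM (linear axis, own scale per gene) of the 9 members with counts and of Eno1b in A, P and ExE, with 1 bar per library, EPZ005687 in orange and DMSO in blue. The 3 EPZ005687 bars of Hk2 stand between 26.9 and 53.1 CPM, below the DMSO bars at 246 to 438 CPM, while the A bars of Slc2a1, Aldoa, Pkm and Ldha are higher with EPZ005687.

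Slc2a1 encodes GLUT1, the widespread transporter that lets glucose into the cell. It stood at 458, 140 and 301 CPM in the EPZ005687 libraries of A, P and ExE, against 81.7, 495 and 562 CPM with DMSO. The arms overlapped, with A lowest of the DMSO libraries and highest of the EPZ005687 libraries. The library in A with EPZ005687 was 5.57-fold above A with DMSO (95% counting interval 4.65 to 6.81). In P the ratio of EPZ005687 to DMSO was 0.283 (0.248 to 0.320) and in ExE it was 0.536 (0.493 to 0.581). The treatment contrast over the 3 regions, a log2 fold change of -0.23 with an SE of 0.83 (edgeR adjusted p = 0.97), averages these opposed ratios, and it turned to 0.24 with library totals as the scaling.

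Hk2, the hexokinase known for its link to high glycolytic flux and to the outer mitochondrial membrane, had 60, 111 and 66 counts in the EPZ005687 libraries of A, P and ExE. With DMSO it had 735, 729 and 1631 counts. In CPM these were 47.7, 53.1 and 26.9 with EPZ005687, against 438, 246 and 367 with DMSO. Every EPZ005687 library lay below every DMSO library, as it did for 8.75% of the 13744 genes tested. The mean was 42.5 ± 13.8 CPM with EPZ005687 and 350 ± 97.1 CPM with DMSO (SD, n = 3 regions each, which are not repeats of a region). The log2 fold change was -3.06 (SE 0.55, edgeR adjusted p = 0.0156), an 8.34-fold lower level. Of 9 members tested 1 was called, against 1.53% of all genes tested, and 1.48% of all genes fell.

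Region by region, Hk2 was 9.05-fold lower with EPZ005687 in A, 4.58-fold lower in P and 13.3-fold lower in ExE. As ratios these were 0.110 (0.0822 to 0.142), 0.218 (0.175 to 0.264) and 0.0754 (0.0564 to 0.0938). The call was lost without A EPZ005687 (log2 fold change -2.98, edgeR adjusted p = 0.053), without ExE EPZ005687 (-2.68, adjusted p = 0.084), without ExE DMSO (-2.70, adjusted p = 0.064) and with A and P only (-2.66, adjusted p = 0.138). Over all alternatives the log2 fold change lay between -3.45 and -2.63. In bulk tissue, fewer cells that express Hk2 and less Hk2 RNA per cell cannot be told apart. The arms also differed across the library. Actb, the beta-actin gene, stood at 1055, 973 and 534 CPM in the EPZ005687 libraries of A, P and ExE, against 47441, 54505 and 67941 CPM with DMSO. Genes with at least 1 count numbered 19576, 18524 and 19058 with EPZ005687 and 14754, 17747 and 15367 with DMSO. The ribosomal RNA precursor Rn45s took 1.44%, 6.54% and 0.521% of counts with EPZ005687 and 0.109%, 0.0538% and 0.0853% with DMSO. The part of these differences in the Hk2 result was not tested.

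Hk1, the hexokinase used in most adult tissues and above all in brain, was close to the limit of detection. It had 2, 6 and 20 counts in the EPZ005687 libraries of A, P and ExE, against 20, 7 and 5 counts with DMSO, and it passed the filter on low counts through the 2 libraries with 20. In ExE the EPZ005687 level was 4.64-fold that with DMSO (2.64 to 24.7), while in A the ratio was 0.188 (0.0151 to 0.549). The regions thus went opposite ways on few counts, and the treatment contrast had a log2 fold change of 0.17 with an SE of 1.90 (edgeR adjusted p = 0.993).

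Hkdc1 encodes a hexokinase domain protein whose gene lies next to Hk1 on chromosome 10, with 3216 bases between them. It had 3, 66 and 396 counts in the EPZ005687 libraries of A, P and ExE, against 0, 91 and 442 counts with DMSO. In CPM these were 2.38, 31.5 and 161 with EPZ005687 and 0, 30.7 and 99.3 with DMSO. The order ExE above P above A was the same in both arms. Hkdc1 passed the filter on low counts only through the P and ExE libraries, where it is high. In P the arms could not be separated, with a ratio of EPZ005687 to DMSO of 1.03 (0.736 to 1.43). In ExE the ratio was 1.62 (1.41 to 1.86), and in A the 3 counts and 0 counts allow no fold. The treatment contrast did not pass (log2 fold change 0.79, SE 0.74, edgeR adjusted p = 0.854).

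**Figure D2:**
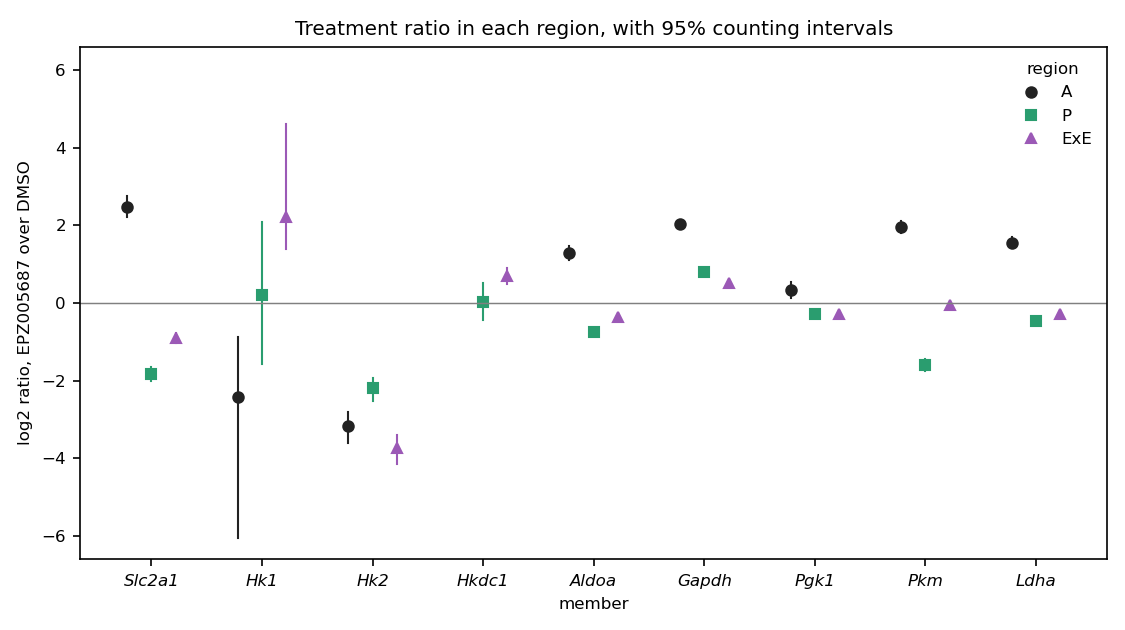
Log2 ratio of EPZ005687 to DMSO (TMM-scaled CPM, prior count 2) for each of 9 members in A (circle), P (square) and ExE (triangle), with 95% counting intervals as lines. The 3 Hk2 points lie below 0 and the 3 Gapdh points above 0, while Slc2a1, Aldoa, Pgk1 and Ldha are above 0 in A and below 0 in P and ExE (with library totals above 0 in ExE for Aldoa, Pgk1 and Ldha). Hkdc1 in A, with 0 counts in DMSO, has no point.

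The counts of Hkdc1 set against those of Hk2 inside a library do not depend on the scaling, and a difference in length between the genes cancels when libraries are compared. Hkdc1 made up 4.76% of the counts of the pair in A with EPZ005687 (exact 95% binomial interval 0.993% to 13.3%), and 0 of 735 in A with DMSO, which allows up to 0.501%. In P it made up 37.3% with EPZ005687 (30.1% to 44.9%) and 11.1% with DMSO (9.03% to 13.4%). In ExE it made up 85.7% with EPZ005687 (82.2% to 88.8%) and 21.3% with DMSO (19.6% to 23.1%). Within every region the intervals of the arms did not overlap. The number of Hkdc1 counts per Hk2 count was 4.76-fold higher with EPZ005687 in P, at 0.595 against 0.125 with DMSO. In ExE it was 22.1-fold higher, at 6 with EPZ005687 against 0.271 with DMSO. Most of this difference comes from Hk2, since the Hkdc1 level itself differed by a ratio of 1.03 in P and 1.62 in ExE.

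**Figure D3:**
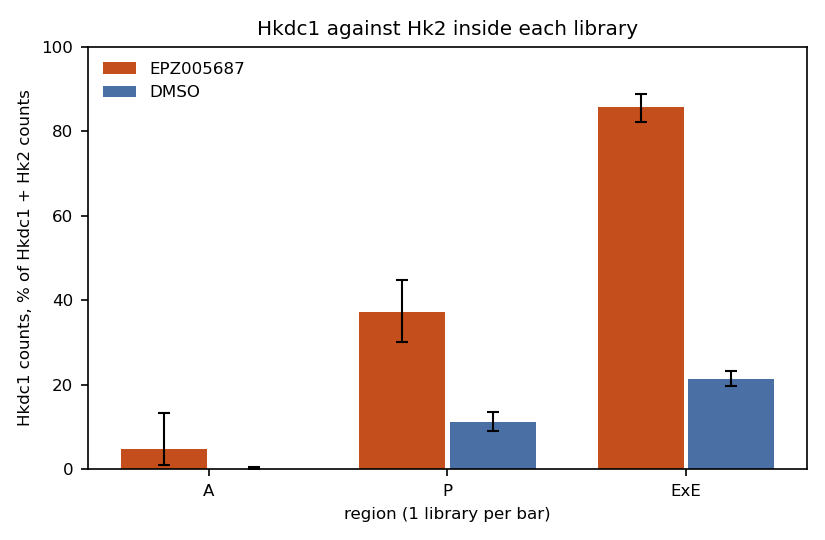
Hkdc1 counts as a percentage of Hkdc1 plus Hk2 counts in each region, with EPZ005687 in orange, DMSO in blue, and exact 95% binomial intervals of 1 library each as lines. The share is 85.7% in ExE with EPZ005687 and 21.3% in ExE with DMSO, and lower in P and A of both arms.

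Aldoa, the aldolase that cleaves fructose 1,6-bisphosphate, stood at 558, 506 and 744 CPM in the EPZ005687 libraries of A, P and ExE, against 227, 846 and 959 CPM with DMSO. The arms overlapped. The ratio of EPZ005687 to DMSO was 2.45 (2.16 to 2.79) in A and 0.598 (0.556 to 0.643) in P. In ExE it was 0.777 (0.735 to 0.821), which turned above 1 with library totals. The treatment contrast had a log2 fold change of 0.04 with an SE of 0.59 (edgeR adjusted p = 0.993).

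Gapdh, the dehydrogenase that makes NADH in the pathway, stood at 2602, 1170 and 1151 CPM in the EPZ005687 libraries of A, P and ExE. With DMSO it stood at 632, 670 and 801 CPM. Every EPZ005687 library lay above every DMSO library, as for 8.82% of the genes tested. The mean was 1641 ± 832 CPM with EPZ005687 and 701 ± 88.7 CPM with DMSO (SD, n = 3 regions each). The log2 fold change was 1.12 (SE 0.59, edgeR adjusted p = 0.675) and did not pass. The regional ratios were 4.11 (3.84 to 4.42) in A, 1.75 (1.65 to 1.85) in P and 1.44 (1.37 to 1.51) in ExE. Gapdh is often taken as a reference gene, and here it made up 41.9%, 33.3% and 23.9% of the members' counts in the EPZ005687 libraries of A, P and ExE, against 27.5%, 14.2% and 14.2% with DMSO.

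Pgk1, the X-linked kinase that forms the first ATP of the pathway, stood at 310, 556 and 790 CPM in the EPZ005687 libraries of A, P and ExE, against 244, 674 and 957 CPM with DMSO. The ratios of EPZ005687 to DMSO were 1.27 (1.10 to 1.46) in A, 0.826 (0.767 to 0.888) in P and 0.826 (0.782 to 0.871) in ExE. The log2 fold change was -0.07 (SE 0.51, edgeR adjusted p = 0.982), and 0.36 with library totals, under which the ExE ratio too turned above 1. Xist, the RNA of the inactive X chromosome, stood at 13.5, 7.17 and 32.6 CPM in the EPZ005687 libraries of A, P and ExE, against 200, 155 and 337 CPM with DMSO, and the part of X dosage in Pgk1 was not tested. Set against Pgk1 in the same library, Gapdh had 8.39, 2.10 and 1.46 counts per Pgk1 count in the EPZ005687 libraries of A, P and ExE. With DMSO it had 2.59, 0.994 and 0.837, so the 2 consecutive steps changed unequally in each region.

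Eno1, the enolase of most tissues, was listed at 0 counts in all 6 libraries. The symbol Eno1b, a near-identical copy, had 358, 34 and 260 counts in the EPZ005687 libraries of A, P and ExE, against 139, 324 and 410 with DMSO. How the counting treated reads that match both copies is not given in the sources used here, so neither the 0 of Eno1 nor the counts of Eno1b can be assigned to 1 gene. In CPM, Eno1b stood at 284, 16.3 and 106 with EPZ005687 and at 82.9, 109 and 92.1 with DMSO. The ratio of EPZ005687 to DMSO was 3.41 (2.81 to 4.21) in A, 0.155 (0.101 to 0.212) in P and 1.15 (0.980 to 1.35) in ExE. The treatment contrast had a log2 fold change of -0.15 with an SE of 0.83 (edgeR adjusted p = 0.979), and 0.35 with library totals.

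Pkm, pyruvate kinase, stood at 1203, 175 and 535 CPM in the EPZ005687 libraries of A, P and ExE, against 309, 529 and 555 CPM with DMSO. The EPZ005687 libraries spanned both the highest and the lowest level of the 6. The ratio of EPZ005687 to DMSO was 3.88 (3.52 to 4.30) in A and 0.332 (0.295 to 0.371) in P. In ExE it was 0.964 (0.901 to 1.03), an interval that holds 1. The log2 fold change over the regions was 0.09 (SE 0.72, edgeR adjusted p = 0.986).

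Ldha, the lactate dehydrogenase subunit that favours lactate formation, stood at 1030, 880 and 1106 CPM in the EPZ005687 libraries of A, P and ExE, against 351, 1214 and 1355 CPM with DMSO. A with DMSO was the lowest of the 6 libraries. The ratio of EPZ005687 to DMSO was 2.93 (2.66 to 3.24) in A and 0.725 (0.685 to 0.767) in P. It was 0.816 (0.780 to 0.854) in ExE, which turned above 1 with library totals. The log2 fold change was 0.24 (SE 0.62, edgeR adjusted p = 0.953). Ldha kept a narrow ratio to Aldoa, at 1.85, 1.74 and 1.49 counts per Aldoa count in the EPZ005687 libraries of A, P and ExE, against 1.54, 1.44 and 1.41 with DMSO. Pkm per Ldha ranged more widely, with 1.17, 0.199 and 0.484 in the EPZ005687 libraries and 0.883, 0.435 and 0.410 in the DMSO libraries.

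Summed, the members stood at 6212, 3515 and 4823 CPM in the EPZ005687 libraries of A, P and ExE, against 2295, 4706 and 5655 CPM with DMSO. They took 0.782%, 0.338% and 0.594% of all counts with EPZ005687 and 0.216%, 0.408% and 0.433% with DMSO. The lowest sum was thus that of A with DMSO and the highest that of A with EPZ005687. In A, 7 of the 9 members tested were above DMSO, as were 53.0% of all genes tested. The members' median log2 ratio was 1.55, against 0.15 over all genes tested. For 6 of the 7 members the counting interval was clear of 1, and the other one is Hkdc1, with 3 counts against 0. The share of all genes with an interval clear of 1 was not computed. In P, 3 of 9 were above DMSO, against 49.6% of all genes, with a median of -0.46 against -0.01 over all genes. In ExE, 3 of 9 were above DMSO, against 51.3% of all genes, with a median of -0.28 against 0.05. With library totals, however, 7 of 9 were above, as Aldoa, Pgk1, Pkm and Ldha crossed 1. That scaling adds about 0.68 to log2 ratios in ExE, but less for Hk1 with its few counts, which went from 2.21 to 2.75. Over the 3 regions together the members' median log2 fold change was 0.09, against 0.20 over all genes, with TMM, and 0.53, against 0.63, with library totals.

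The part that cell make-up has in the difference in A was not tested, but markers moved beside it. Visceral endoderm markers summed to 3751 CPM in A with EPZ005687 and 542 CPM in A with DMSO, with 14 and 10 of 15 markers detected. In A with DMSO, Apoa1, Apoc2, Amn, Hnf4a and Foxa2 were at 0. Over all genes, 19576 had a count in A with EPZ005687 and 14754 in A with DMSO. Afp alone stood at 2302 CPM in A with EPZ005687 and 5.37 CPM in A with DMSO. Lrp2 (109 against 358 CPM), Cubn (46.1 against 47.7 CPM) and Cer1 (6.36 against 10.1 CPM) were lower with EPZ005687. Anterior neural markers summed to 230 CPM in A with EPZ005687 and 781 CPM in A with DMSO. Primitive streak markers summed to 163 CPM and 4.77 CPM, a difference carried by T alone, at 161 CPM and 0. Mixl1 and Fgf8 were lower in A with EPZ005687, at 0.795 and 0 CPM against 2.38 CPM each with DMSO. Mesp1 was at 0 in both, and Wnt3 had 1 count against 0. In P, cardiac and lateral mesoderm markers summed to 1363 CPM with EPZ005687 and 59.1 CPM with DMSO, and primitive blood markers to 1388 CPM and 9704 CPM. The part of these markers in the lower P levels was not tested either.

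Between regions, Hkdc1 was the member that differed most. ExE versus the mean of the embryonic libraries gave it a log2 fold change of 4.45 with an SE of 0.74 (unadjusted p = 7.09e-05, edgeR adjusted p = 0.131). That did not pass, and edgeR called 0% of all genes in this contrast, where 882 of 13744 had an unadjusted p under 0.05. DESeq2 called Hkdc1 (log2 fold change 4.50, DESeq2 adjusted p = 5.02e-05) among the 1.21% of genes it called higher in ExE. Hkdc1 was among the genes tested through its P and ExE libraries alone. Limma-voom did not call it (log2 fold change 4.56, limma-voom adjusted p = 0.376). Leaving out 1 library at a time, the edgeR log2 fold change lay between 3.95 and 6.63. In single pairs, Hkdc1 was 5.01-fold higher in ExE than in P with EPZ005687 (3.93 to 6.74) and 3.18-fold higher with DMSO (2.58 to 4.10). With EPZ005687, ExE stood 50.8-fold above the 3 counts in A (23.0 to 329). With DMSO, ExE was at least 55.5-fold higher than A, taken against a floor of 3 counts in the A library.

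P versus A gave Hkdc1 a log2 fold change of 4.96 with an SE of 1.09 (unadjusted p = 0.000694, edgeR adjusted p = 0.279). In edgeR 0% of genes passed here, with 744 of 13744 at an unadjusted p under 0.05. DESeq2 called Hkdc1 (4.99, DESeq2 adjusted p = 0.00499) among 1.51% of genes called higher in P. As above, Hkdc1 passed the filter on low counts only through P and ExE, not through A. Limma-voom did not call it (4.99, limma-voom adjusted p = 0.540). Leaving out 1 library at a time, the edgeR log2 fold change lay between 3.87 and 9.23. With EPZ005687, P stood 10.1-fold above A (4.34 to 65.8), and with DMSO P was at least 17.2-fold higher than A on the same floor.

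Within each arm the Hkdc1 level had the same order over the regions as the sum of visceral endoderm markers. These markers summed to 23636, 9726 and 3751 CPM in ExE, P and A with EPZ005687, and to 42253, 17359 and 542 CPM with DMSO. Between the arms the regions were not alike. In A both were higher with EPZ005687, with Hkdc1 at 3 counts against 0. In ExE, Hkdc1 stood at 161 CPM with EPZ005687 and 99.3 CPM with DMSO, where the marker sum was lower with EPZ005687. Of the markers in that sum, Apoe, Trf and Cer1 were higher with EPZ005687 in ExE and the others lower. In P, Hkdc1 stood at 31.5 CPM and 30.7 CPM, which could not be separated, with the marker sum again lower. Primitive blood markers, at 28462 CPM in ExE with EPZ005687 and 551 CPM in ExE with DMSO, did not keep that order: P with DMSO stood at 9704 CPM. Parietal endoderm markers summed to 3753, 1991 and 635 CPM in ExE, P and A with EPZ005687 and to 15199, 2046 and 312 CPM with DMSO. The part of endoderm content in the Hkdc1 level was not tested.

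**Figure D4:**
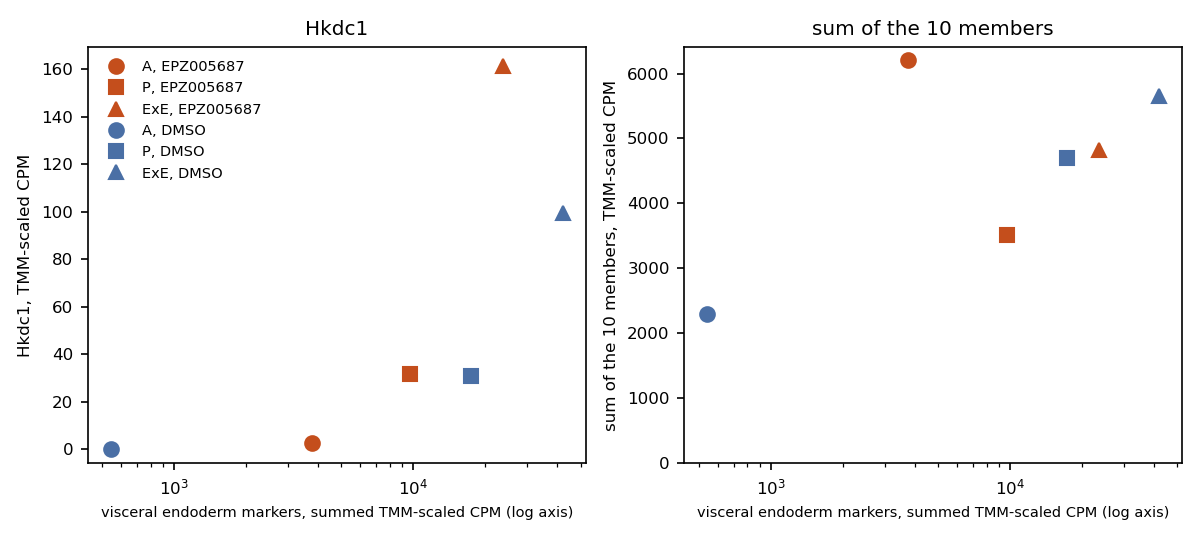
Hkdc1 (left) and the sum of the 10 members (right) in TMM-scaled CPM against the summed TMM-scaled CPM of 15 visceral endoderm markers (log axis), with 1 point per library. Hkdc1 lies at 0 to 2.38 CPM in the 2 A libraries and highest in the 2 ExE libraries, while the member sum is highest, at 6212 CPM, in A with EPZ005687, where the markers sum to 3751 CPM.

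Of the other members, Pgk1 was higher in ExE than in P and in P than in A in both arms. Its log2 fold change was 1.08 for ExE versus embryonic (SE 0.52, edgeR adjusted p = 0.797) and 1.14 for P versus A (SE 0.63, edgeR adjusted p = 0.928). With DMSO, 7 of 9 members were higher in ExE than in A, as were 52.6% of all genes tested. The members' median log2 ratio was 1.95, against 0.13 over all genes tested. With EPZ005687, 5 of 9 were higher, against 52.3% of all genes, with a median of 0.10 against 0.06. Likewise 7 of 9 were higher in P than in A with DMSO (median 1.46, all genes 0.21), against 4 of 9 with EPZ005687 (median -0.14, all genes 0.07). Of all genes tested, 55.3% were higher in P with DMSO and 52.1% with EPZ005687. The A library was the lowest of the 3 DMSO libraries for Slc2a1, Aldoa, Pgk1, Pkm and Ldha.

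Whether EPZ005687 acted differently in ExE and in the embryonic libraries was tested with an interaction term, in a fit where A and P share 1 effect. No member passed in edgeR (0 of 9, smallest unadjusted p = 0.289), against 0.0509% of all genes. The members' log2 differences in effect ran from -1.22 for Slc2a1 to 4.03 for Hk1, with an SE of 3.80 for Hk1. Since A and P went opposite ways for Slc2a1, Aldoa, Pgk1, Pkm and Ldha, a shared embryonic effect averages over them. A fit of the difference in effect between A and P was tried and failed its check on simulated counts, so it is not used.

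In the rest of the pathway no gene passed in any of the 4 contrasts. Of 19 other glycolytic enzymes 16 were tested for treatment, and 0 rose and 0 fell, with 7 positive and a median log2 fold change of -0.06 (all genes 0.20). Tpi1, triosephosphate isomerase, stood at 149, 124 and 436 CPM in the EPZ005687 libraries of A, P and ExE and 133, 359 and 564 CPM with DMSO. Pgam1, phosphoglycerate mutase, stood at 839, 242 and 266 CPM with EPZ005687 and 388, 375 and 412 CPM with DMSO. Pgam1 resembled Pkm in that A was above DMSO and P below, while Tpi1 was below DMSO in P and differed little in A. Gpi1, the isomerase after hexokinase, stood at 124, 87.5 and 126 CPM with EPZ005687 and 78.7, 126 and 112 CPM with DMSO. Gpi1 too was above DMSO in A and below in P. Ldhb, the lactate dehydrogenase subunit that favours pyruvate, stood at 85.0, 60.7 and 11.8 CPM with EPZ005687 and 100.2, 20.9 and 31.9 CPM with DMSO. The arms overlapped for each of these genes.

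Phosphofructokinase catalyses the committed step of the pathway. Its liver form Pfkl stood at 78.7, 12.9 and 119 CPM in the EPZ005687 libraries of A, P and ExE and 63.8, 103 and 94.4 CPM with DMSO. The platelet form Pfkp stood at 11.9, 9.56 and 30.5 CPM with EPZ005687 and 1.19, 32.4 and 5.39 CPM with DMSO. The muscle form Pfkm stayed between 8.13 and 29.7 CPM with EPZ005687 and between 14.3 and 29.0 CPM with DMSO. Pfkl thus shared the low level in P with EPZ005687 seen for Pkm and Slc2a1.

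Among 10 other glucose transporters 6 were tested and none passed for treatment (4 positive, median 0.40). Slc2a3, which encodes the high-affinity transporter GLUT3, stood at 308, 698 and 505 CPM in the EPZ005687 libraries of A, P and ExE and 225, 1154 and 970 CPM with DMSO. Of 7 lactate and pyruvate carriers 6 were tested and none passed (4 positive, median 0.29). Slc16a1, the lactate and pyruvate carrier MCT1, stood at 120, 953 and 160 CPM with EPZ005687 and 56.0, 767 and 1760 CPM with DMSO. It was lower with EPZ005687 in ExE and higher in A and P, an interaction with a log2 difference of -4.16 (unadjusted p = 0.0055, edgeR adjusted p = 0.97) that did not pass. Slc16a3, the exporter MCT4, lay below the filter on low counts.

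The steps beyond pyruvate gave no calls for treatment. Of 11 pyruvate dehydrogenase subunits and kinases 4 were positive (median -0.16), of 16 TCA cycle genes 6 (median -0.22) and of 7 pentose phosphate genes 5 (median 0.22). Pdk1, the kinase that holds pyruvate back from the TCA cycle, stood at 6.36, 25.8 and 32.2 CPM in the EPZ005687 libraries of A, P and ExE and 10.1, 28.4 and 25.8 CPM with DMSO. Of the 4 enzymes that set fructose 2,6-bisphosphate 3 were tested (1 positive, median -0.18), and of 7 gluconeogenesis genes 4 (3 positive, median 0.76).

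**Figure D5:**
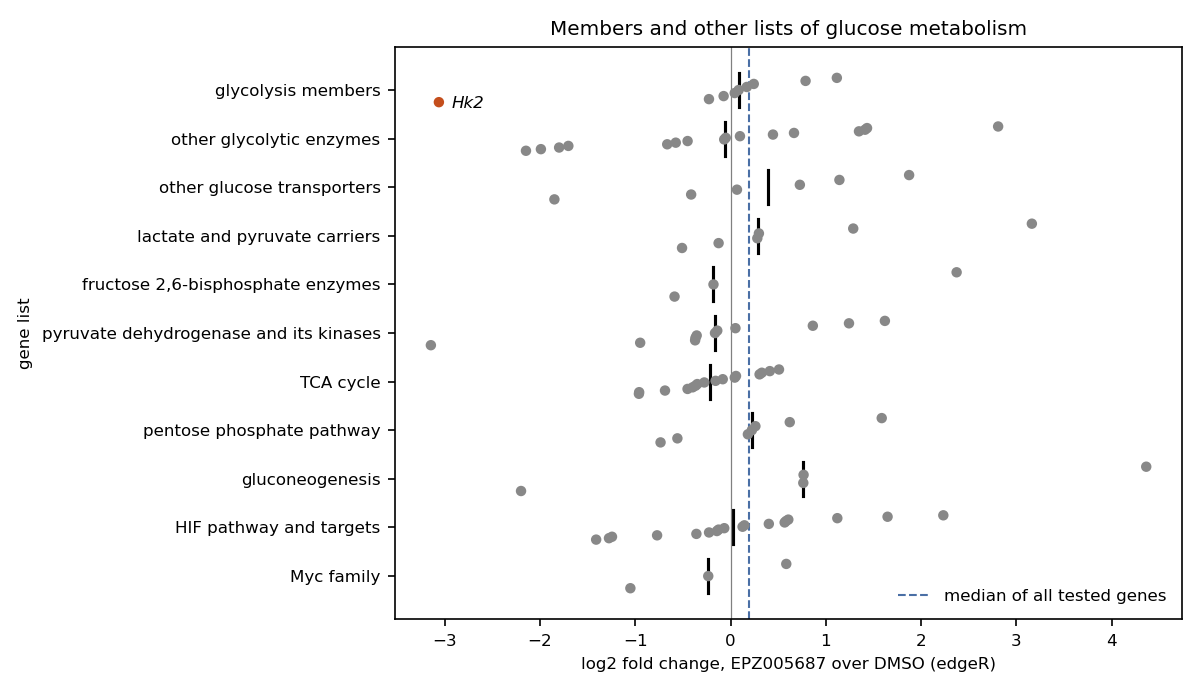
Log2 fold change of EPZ005687 over DMSO (edgeR, x axis) for each tested gene of the member list and 10 further lists, with a black bar at the median of each list. Hk2, in orange at -3.06, is the 1 called gene, and the list medians lie on both sides of the median of all genes tested (dashed, 0.20).

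The HIF list, 20 pathway genes and targets of which 18 were tested, was split for treatment, with 9 positive and 9 negative and a median of 0.03. Hif1a itself stood at 195, 273 and 134 CPM in the EPZ005687 libraries of A, P and ExE and 70.3, 173 and 179 CPM with DMSO. Bnip3, a mitophagy receptor and HIF target, stood at 51.6, 160 and 613 CPM with EPZ005687 and 10.7, 500 and 931 CPM with DMSO. Vegfa, the angiogenic factor, stood at 11.1, 22.5 and 5.29 CPM with EPZ005687 and 0.596, 16.5 and 18.2 CPM with DMSO. The Vegfa level in A with DMSO rests on 1 count, under the limit of 3. Of the 18 tested HIF genes, 14 were higher with EPZ005687 in A, 7 in P and 5 in ExE, where 53.0%, 49.6% and 51.3% of all genes tested were higher. These numbers hold with TMM and were not recounted with library totals. Since library totals raise log2 ratios in ExE by about 0.68, the low number in ExE may depend on the scaling. For P versus A, 15 of 18 HIF genes were positive (median 1.33, all genes 0.12), and for ExE versus embryonic 14 of 18 (median 0.54, all genes 0.03), with none called in edgeR. In the Myc family 3 genes were tested and none passed for treatment (1 positive, median -0.23). Myc, a regulator of glycolytic genes, stood at 14.3, 15.8 and 7.33 CPM with EPZ005687 and 96.0, 12.8 and 12.6 CPM with DMSO. Mycn stood at 35.8, 34.9 and 15.5 CPM with EPZ005687 and 61.4, 24.98 and 20.5 CPM with DMSO. In A with DMSO, Myc and Hk2 were at their highest of the 6 libraries. Slc2a1, Aldoa, Gapdh, Pgk1 and Ldha were at their lowest there. In P, Hk2 was lower with EPZ005687, at 53.1 CPM against 246 CPM, where Myc was slightly higher. The part of Myc in these levels was not tested.

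Likeness between genes was described by Pearson's r of log2 (CPM + 1) over the 6 libraries. For r, CPM was taken from library totals, without TMM. The libraries share region, arm and depth, so r carries no test. The closest pairs of members were Hkdc1 with Pgk1 (r = 0.99) and Aldoa with Ldha (r = 0.98), and Slc2a1 was closest to Aldoa (r = 0.90). Pkm was closest to Slc2a1 (r = 0.76) and Gapdh to Pkm (r = 0.67). Hk2 had no positive r with any member, its nearest being Hk1 at -0.11, and its r with Gapdh was -0.77. Among 6605 genes with a mean of at least 20 CPM by library totals, those closest to Hk2 were Paip1 (r = 0.99), Pak2, Dse, Usp22 and Ythdf2. Paip1, which encodes a partner of the poly(A)-binding protein, stood at 62.8, 88.4 and 22.0 CPM in the EPZ005687 libraries of A, P and ExE and 2346, 1277 and 1542 CPM with DMSO. Closest to Hkdc1 were Rps4l (r = 0.998), Ncoa4, Mgst3, Chmp2a and Wdr7. Ncoa4, the receptor that delivers ferritin to autophagy, stood at 79.5, 241 and 450 CPM with EPZ005687 and 59.0, 317 and 442 CPM with DMSO. Chosen by r over these libraries, the neighbours of Hk2 divide the arms and those of Hkdc1 order the regions by selection.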

How the data were processed

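The deposited table holds whole-number read counts per gene, not normalized, as its values show, for 6 RNA libraries. The submitters' processing notes list the tools CASAVA 1.8, TopHat2 2.0.9 and BWA with the build mm10, without their roles. Neither the counting tool nor its strand setting nor its annotation is given in the sources used here. Of 23154 entries, 27 that carried dates were left out, and 23020 of 23127 symbols matched RefSeq (GRCm38.p6). Genes that reached 10 counts in 2 or more libraries (13744, among them 9 of the 10 members) were scaled by TMM and fitted with edgeR 4.0.16 in R 4.3.3 (quasi-likelihood test, region and treatment additive, 2 residual degrees of freedom, interaction fit 1). Adjusted p-values are Benjamini-Hochberg values over all genes tested, with a threshold of 0.05. SE is the log2 fold change over the square root of F. DESeq2 1.42.0 and limma-voom 3.58.1 were alternatives, beside scaling by library totals, other filters on low counts, other terms and leaving out each library. Fits of the difference in treatment effect between A and P or ExE, added after the data had been seen, did not recover known differences in simulated counts and were dropped. Their values from the data had by then been seen. Regional ratios of 2 libraries used a prior count of 2 and exact conditional 95% binomial intervals. Each region and treatment has 1 library, so regions or arms stand in for repeats, and p-values rest on the spread between the 6 libraries, which may be technical. Hexokinase shares were planned per transcript length. Lengths were not used here, so shares of raw counts are given, and compared between libraries only. Members and gene lists were chosen with earlier results of these data known. Named genes are the members, listed pathway genes given whatever their values, and the 5 genes most like Hk2 and Hkdc1. Marker lists served to check tissue labels.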

Additional observations from a re-analysis of the deposited data

Results flagged for a closer look

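In 11 cases a gene's ratio of EPZ005687 to DMSO went opposite ways in 2 regions, with both counting intervals clear of 1. The share of all genes tested that would be flagged this way was not computed, so the number is not particular to the members. Counting intervals are narrow at high counts, and Pgk1 was flagged at ratios of 1.27 in A and 0.826 in P. There is 1 library per region and treatment, and the difference was tested in no usable fit, since the one tried failed its check on simulated counts. The cases are given as the difference of the 2 log2 ratios.

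Between A and P, the log2 ratios of Slc2a1 differed by 4.30 (2.48 in A and -1.82 in P), those of Aldoa by 2.03, those of Pkm by 3.55, those of Ldha by 2.02 and those of Pgk1 by 0.62. The uncertain near copy Eno1b differed by 4.46. In each of these genes A was above DMSO and P below, and with library totals no member crossed 1 in A or P.

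Between A and ExE, the log2 ratios of Slc2a1 differed by 3.38, those of Aldoa by 1.66, those of Ldha by 1.85 and those of Pgk1 by 0.62, again with A above DMSO. With library totals the ExE ratios of Aldoa, Ldha and Pgk1 were above 1, so that their regions no longer went opposite ways. Hk1 went the other way round by 4.62 (-2.41 in A and 2.21 in ExE). It had 2 counts in A with EPZ005687 and 20 in A with DMSO, and 20 counts in ExE with EPZ005687 and 5 in ExE with DMSO.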

How the results depend on the processing

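Hk2 stayed lower with EPZ005687 under all 15 alternatives run for it. No paired analysis was possible because the RNA libraries carry no replicate numbers to pair samples by. The treatment test compares the arms within regions through its region term. Leaving out a library from the interaction could not be fitted, and hexokinase shares per length were not run. The added fits of the treatment effect in A against P or ExE failed their check on simulated counts and are not reported. Leaving out a library leaves 1 library in a region, assumed to vary like the rest.

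For EPZ005687 versus DMSO, 210 genes were called, against 572 with DESeq2, 397 with limma-voom, 109 with library totals, 349 without a filter and 89 with A and P only (170 to 330 leaving out a library). Members called were 1, against 0 with A and P only (0 to 1 leaving out a library). For ExE versus embryonic, 242 genes were called with DESeq2, 35 with limma-voom and 210 without a filter (0 to 388), with 1 member under DESeq2 and without a filter (0 to 1). For P versus A these were 180, 23 and 140 genes (0 to 230) and likewise 1 member (0 to 1). The interaction had 7 genes, against 16 with DESeq2, 0 with library totals, 0 with 10 counts in 4 libraries and 4 without ribosomal genes.

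Uncalled values changed sign as follows, and the cause was not tested. For treatment, library totals gave 0.24 for Slc2a1, 0.36 for Pgk1 and 0.35 for Eno1b. A and P only gave 0.36 for Slc2a1 and 0.072 for Pgk1. No region term gave -0.23 for Hk1, -0.17 for Aldoa and 0.51 for Eno1b. With 10 counts in 4 libraries Pgk1 had 0.018. For ExE versus embryonic, limma-voom gave -0.43 for Hk1 and 0.22 for Eno1b, and no treatment term 0.046 for Hk2. For P versus A, library totals gave -0.069 for Slc2a1.

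Leaving out a library gave these ranges. For treatment: Slc2a1 -1.35 to 0.82, Hk1 -1.22 to 1.57, Aldoa -0.55 to 0.51, Pgk1 -0.27 to 0.075, Pkm -0.81 to 0.996, Ldha -0.37 to 0.67, Eno1b -1.23 to 1.03. For ExE versus embryonic: Slc2a1 -0.12 to 1.83, Hk1 -1.17 to 1.66, Hk2 -0.93 to 0.10, Gapdh -0.64 to 0.23, Pkm -0.34 to 1.05, Eno1b -0.63 to 1.28. For P versus A: Slc2a1 -1.47 to 2.37, Hk2 -0.997 to 0.25, Aldoa -0.051 to 1.79, Gapdh -1.23 to 0.14, Pkm -2.40 to 0.43, Ldha -0.19 to 1.74. Eno1b was called in P versus A without P DMSO (-3.82, edgeR adjusted p = 0.0087). Hk1 had 2 to 20 counts per library, which did not follow the library totals.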
